A study of Homo sapiens with 8 samples.

Results

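Open chromatin was described at the 10 genes FOS, FOSB, FOSL1, FOSL2, JUN, JUNB, JUND, ATF3, BATF and BATF3, which encode subunits of the transcription factor AP-1 or close relatives. Regions belonged to a gene if a peak summit lay in the gene body or within 50 kb of one of its start sites (GENCODE release 44 on GRCh37). This gave 83 of the 43569 regions found across the genome, and no region was shared by 2 of the genes. ATAC-seq, in which the transposase Tn5 cuts accessible DNA, had been run on HUDEP-2, an immortalized human erythroid progenitor line that is kept in culture with stem cell factor (SCF) and erythropoietin and depends on doxycycline-driven viral oncogenes. All cells analysed carried the control guide RNA sgControl, a scrambled guide in a CRISPR interference design. They were starved for 5 h in medium with albumin and then received SCF at 50 ng/ml, the ligand of the receptor tyrosine kinase Kit, or phosphate-buffered saline (PBS) for 1 h. There were 2 libraries of about 50000 cells for each treatment, which the study calls biological duplicates. The 4 sgEGR1 samples were not analysed here.

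AP-1 is a dimer of basic leucine zipper (bZIP) proteins. FOS family members dimerize with JUN family members, while JUN proteins also pair with themselves and with ATF proteins, and BATF and BATF3 act as partners without a transactivation domain. FOS, FOSB, JUN, JUNB and ATF3 are immediate early genes: growth factor receptors switch them on within minutes through MAP kinases, which act on ternary complex factors and serum response factor at the serum response element and on CREB, ATF and JUN proteins at cAMP response elements and their variants. Transcripts are short-lived, and in many cell types these promoters are held open before a signal arrives. The comparison of SCF with PBS asks whether accessibility around the genes themselves changed 1 h after Kit was activated.

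The promoters hold known response elements, and the stretches around them are printed first. All are the plus strand of GRCh37, with matches to the searched words in capitals. The words were TGANTCA (AP-1), TGACGTCA (cAMP response element), TGACATCA and TTACGTCA (variants of it known from the JUN and ATF3 promoters), GCGTGGG (EGR), CCGGAA (ETS), AGATAA, or the same with T as its first base (GATA), and the serum response element, a core of A or T bases between CC and GG. Both strands were searched, so that the JUN word appears as its reverse complement.
FOS, chr14:75745162-75745282, serum response element: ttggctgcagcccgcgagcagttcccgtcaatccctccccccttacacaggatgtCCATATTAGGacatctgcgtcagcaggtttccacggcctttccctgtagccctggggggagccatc
FOSB, chr19:45970923-45971208, cAMP response element, serum response element, ETS and ATF3 variant in this order: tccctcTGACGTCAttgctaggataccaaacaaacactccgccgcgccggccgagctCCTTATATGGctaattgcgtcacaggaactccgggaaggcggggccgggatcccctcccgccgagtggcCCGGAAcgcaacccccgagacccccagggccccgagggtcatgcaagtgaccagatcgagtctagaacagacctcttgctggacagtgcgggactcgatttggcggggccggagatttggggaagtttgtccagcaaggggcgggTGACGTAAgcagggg
JUN, chr1:59249755-59249955, JUN variant: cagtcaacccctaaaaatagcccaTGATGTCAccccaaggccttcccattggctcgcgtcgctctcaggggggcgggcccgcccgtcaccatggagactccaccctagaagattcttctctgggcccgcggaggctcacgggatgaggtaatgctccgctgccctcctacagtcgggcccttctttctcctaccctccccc
JUND, chr19:18392449-18392649, cAMP response element: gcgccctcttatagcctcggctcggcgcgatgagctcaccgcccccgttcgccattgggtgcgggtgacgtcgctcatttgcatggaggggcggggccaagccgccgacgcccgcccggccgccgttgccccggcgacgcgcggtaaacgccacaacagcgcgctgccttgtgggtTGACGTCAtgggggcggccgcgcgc
ATF3, chr1:212781886-212782086, ATF3 variant: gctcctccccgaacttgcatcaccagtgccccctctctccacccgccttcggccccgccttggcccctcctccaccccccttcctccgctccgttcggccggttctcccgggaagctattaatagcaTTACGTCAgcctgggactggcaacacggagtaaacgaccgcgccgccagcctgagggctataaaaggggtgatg
JUNB, chr19:12902131-12902251, EGR: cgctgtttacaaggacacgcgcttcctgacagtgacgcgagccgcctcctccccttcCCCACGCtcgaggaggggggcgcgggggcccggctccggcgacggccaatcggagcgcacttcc

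Of the 83 regions, 12 were promoters of the AP-1 genes, with a summit no more than 1 kb from one of the gene's start sites. Another 31 were promoters of other genes in the window, and 40 were distal. Of the distal regions, 23 lay between genes, 11 in introns, 3 in non-coding genes, 2 in coding exons and 1 in an untranslated exon. The genes sit in very different surroundings. JUNB had 19 regions, FOSB 14, FOSL1 13, JUND 10, FOS 9, FOSL2 7, ATF3 5, JUN 4 and BATF3 2, and 43 of the 83 lay on chromosome 19, where JUNB, JUND and FOSB are located among many other genes. The annotation puts 10 other protein-coding genes in the window of FOSL1, 8 in that of JUNB and 5 in that of JUND, but 0 in those of FOS, FOSL2 and JUN. No region was called within 50 kb of BATF (ENSG00000156127.8_7, chr14:75988798-76013336), a gene known mainly from lymphocytes.

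The lists held 30240 and 33616 peaks for PBS replicates 1 and 2, and 29269 and 33324 for SCF replicates 1 and 2. Of these, 76, 77, 74 and 76 lay at the AP-1 genes. The means were 76.5 ± 0.707 for PBS and 75 ± 1.41 for SCF (SD, n = 2), and an exact two-sided permutation test gave p = 0.667. With 2 against 2 libraries, no such test can give a p under 1 in 3. Depth differed. With PBS replicate 1 set to 1, PBS replicate 2 had a depth of 1.42 and the SCF replicates depths of 0.883 and 0.843, so both SCF libraries were the shallower ones. Read totals are unknown. The deposited lists therefore allow a comparison by call and by percentile rank within each list (100 is the highest fold enrichment of the summit over local background), not by normalized reads. A region is said below to have ranked higher in SCF if both SCF ranks lay above both PBS ranks, and lower in the reverse case. Marker promoters were checked against the erythroid label, and 10 of 11 erythroid marker genes had a promoter region, GATA1, KLF1 and HBB among them in every list but not HBG1, against 6 of 10 markers of other cell types, of which PECAM1 had no match in the annotation. Of the former, 0 ranked higher and 2 lower of 9 present in every list. Of the latter, 2 (SPI1 and CD14) ranked higher and 0 lower of 5. Among all promoter regions, 14.4% ranked higher and 20.9% lower. The part of these markers in the results at the AP-1 genes was not tested.

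Regions called with 1 treatment alone were rare at the AP-1 genes, as they were among all regions. Called in both SCF and neither PBS library were 0 of the 83 regions (1.65% of all regions in the genome), and called in both PBS and neither SCF library was 1 (1.2%, against 2.37% of all regions). All 4 libraries called 63 of the 83 (75.9%, against 51.3%), while 8 were called in 3 libraries, 3 in 2 and 9 in a single library. Of these 9, 4 came from PBS replicate 2, 4 from SCF replicate 2 and 1 from SCF replicate 1. Among the 63 regions, 11 ranked higher in SCF (17.5%, against 16% of all regions) and 13 ranked lower (20.6%, against 19.3%). With a gap of at least 10 points, 0 ranked higher (2.56% of all regions) and 3 ranked lower (4.76%, against 3.04%). The shares that ranked higher and lower were thus close to those in the genome, while the share called in all libraries was larger, as the map of the regions and the plot of mean ranks show. Across all 22355 regions called in 4 libraries, limma on log2 fold enrichment called 0 regions at an adjusted p of 0.05 and 1524 (6.82%) at an unadjusted p of 0.05. Of the 63, 0 passed the adjusted and 3 the unadjusted threshold, and the lowest adjusted p was 0.697.

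**Figure D1:**
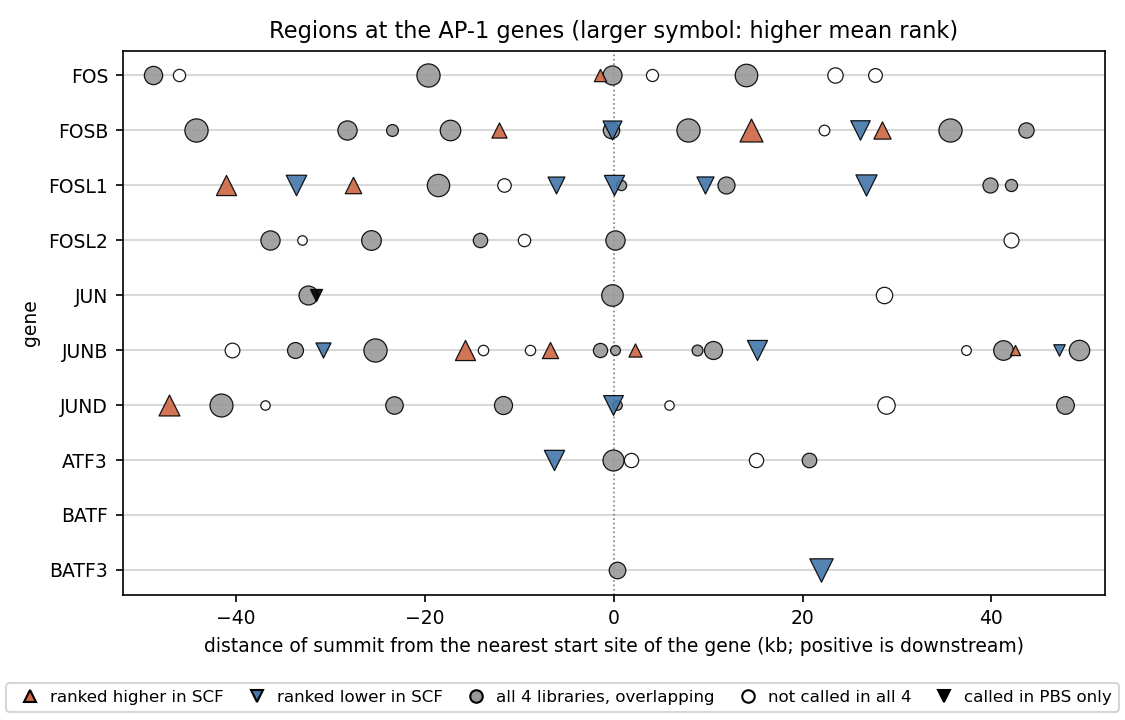
Each symbol is 1 of the 83 regions, placed by the distance of its summit from the nearest start site of the gene in kb, with 1 row for each gene. Larger symbols have a higher mean rank. Up triangles (11) ranked higher and down triangles in blue (13) lower in both SCF libraries, grey circles overlapped, open circles were not called in all 4 libraries, and the black triangle at JUN was called in both PBS libraries alone. The row of BATF is empty.

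**Figure D2:**
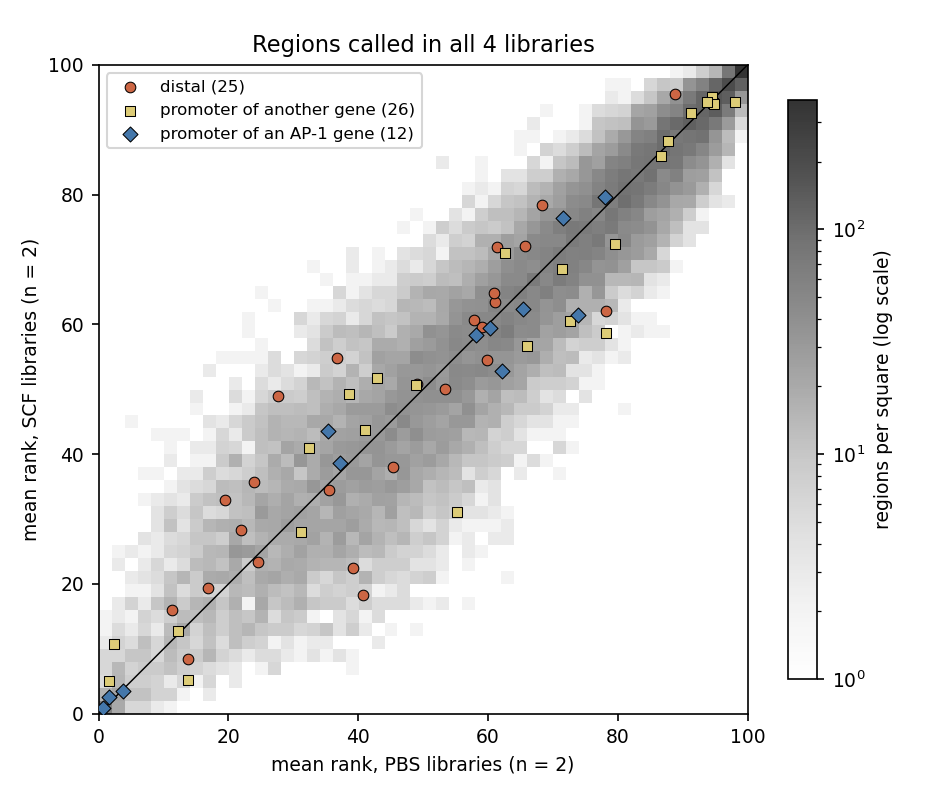
Mean percentile rank of fold enrichment in the 2 PBS libraries (x axis) against that in the 2 SCF libraries (y axis) for the 63 regions at the AP-1 genes called in all 4 libraries, over a grid of all 22355 such regions in grey. The line marks equal ranks. Of the promoters of the AP-1 genes, FOSL1 (−12.4 points) and FOSB (−9.36) lie farthest below the line and BATF3 (8.29) farthest above it, and distal regions scatter to both sides.

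Promoters of the AP-1 genes were open before and after SCF. All 12 promoter regions, belonging to 9 of the 10 genes, were called in all 4 libraries (74.9% of all regions within 1 kb of a start site). None ranked higher in SCF, 3 ranked lower (FOSL1, FOSB and JUND), and 9 overlapped between treatments. Of all such regions in the genome, the shares were 14.4% higher and 20.9% lower. The median difference in rank, SCF minus PBS, was 0.20 points for the 12 promoters and −0.76 points for all 13250 promoter regions.

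FOS (ENSG00000170345.10_7, plus strand) is the classical target of serum response factor. Its promoter region (chr14:75744809-75746595) covers the serum response element shown above and ranked 55.8 and 60.5 with PBS and 60.5 and 56.3 with SCF. The treatments overlapped fully, with a mean of 58.1 ± 3.35 with PBS and 58.4 ± 2.94 in SCF (SD, n = 2). The log2 difference in fold enrichment was 0.02 (95% interval −0.39 to 0.44, limma adjusted p = 0.991). A region at −1.46 kb, low by fold enrichment but with percentile ranks of 71.7 to 76.5 by summit pileup, ranked higher in SCF. Its ranks by fold enrichment were 11.3 and 11.2 with PBS and 13.3 and 18.5 with SCF. Its direction depended on the scale, since the difference was −0.81 points by −log10 p and −1.22 points by summit pileup. Farther out, the regions at −19.7 kb and 14 kb, both at starts of long non-coding transcripts, were among the most enriched of the locus, with ranks of 91.8 to 96.9 and 83.5 to 93.1 that overlapped between treatments. The highest-ranked distal region called in all libraries, at −48.8 kb, ranked 56.5 and 50.3 with PBS and 53.2 and 47.1 with SCF.

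FOSB (ENSG00000125740.15_8, plus strand), whose promoter stretch holds both a cAMP response element and a serum response element, had 2 promoter regions. The first (chr19:45970696-45971818) holds the sequence shown above and ranked 55.4 and 68.9 with PBS and 54.1 and 51.5 with SCF. It ranked lower in SCF, but by a gap of only 1.3 points, and the PBS replicates differed by more than the treatments. The log2 difference was −0.21 (95% interval −0.63 to 0.22, limma adjusted p = 0.907). The inner region at an alternative start (chr19:45972117-45973294) ranked 43.4 and 31.0 with PBS and 36.9 and 40.5 with SCF, which overlap.

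FOSL1 (ENSG00000175592.9_9, minus strand), which encodes FRA1, had the promoter with the largest difference in rank of fold enrichment of the 12. Its region at the first exon (chr11:65667471-65668360) ranked 71.0 and 76.7 with PBS and 59.5 and 63.4 with SCF, that is 73.8 ± 4.01 against 61.4 ± 2.75 (SD, n = 2). Both SCF libraries were lower, by a gap of 7.63 points. The difference of −0.28 log2 units had a 95% interval of −0.63 to 0.08 and did not pass (limma adjusted p = 0.773). Summit pileups divided by the lowest background of each list overlapped, with 63.1 and 57.3 with PBS and 54.0 and 59.9 with SCF. A weak inner region (chr11:65666632-65667170) ranked between 0.88 and 6.77 in all libraries. FOSL2 (ENSG00000075426.12_7, plus strand), which encodes FRA2, had a promoter (chr2:28614404-28616173) that ranked 58.7 and 62.0 with PBS and 59.3 and 59.5 with SCF, which overlap. Its log2 difference in fold enrichment was −0.003 (95% interval −0.41 to 0.40, limma adjusted p = 0.999).

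JUN (ENSG00000177606.9_9, minus strand) had the highest-ranked promoter of the AP-1 genes. The region (chr1:59249073-59250320) ranked 80.3 and 75.7 with PBS and 83.3 and 76.0 with SCF, and replicates differed more than treatments (78.0 ± 3.28 against 79.7 ± 5.16, SD, n = 2, exact permutation p = 0.667). ATF3 (ENSG00000162772.18_14, plus strand), a stress-induced factor, came next. Its promoter (chr1:212781370-212783142) ranked 75.5 and 67.5 with PBS and 74.6 and 78.2 with SCF, again overlapping, with a log2 difference of 0.14 (95% interval −0.20 to 0.47, limma adjusted p = 0.928). No region was called at the first annotated start of ATF3, far upstream of this promoter. BATF3 (ENSG00000123685.9_8, minus strand), known from dendritic cells, had a weak promoter region (chr1:212872497-212873288) with ranks of 34.7 and 35.9 with PBS and 34.7 and 52.5 with SCF, where SCF replicate 2 alone was high.

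At JUNB and JUND, the local background was high, and the ranks by fold enrichment and by pileup were far apart. JUNB (ENSG00000171223.6_6, plus strand), an immediate early JUN gene, had a promoter region (chr19:12902139-12902818) with ranks of only 1.26 and 1.94 with PBS and 1.69 and 3.42 with SCF. Its summit pileup, recovered from the deposited values, was nevertheless 134 and 186 with PBS and 120 and 110 with SCF, not scaled for depth (percentile ranks of 93.6 to 95.7). The local background that the caller set against it was 43.7 and 61.2 with PBS and 36.7 and 33.2 with SCF. At JUND (ENSG00000130522.6_11, minus strand), the promoter region (chr19:18391882-18393069) had the highest summit pileups of the 12, with 398 and 459 with PBS and 331 and 280 with SCF, and percentile ranks by pileup of 99.8 to 100. Scaled for depth by the lowest background of each list, these pileups were 381 and 306 with PBS and 351 and 316 with SCF, which overlap. Quantile normalized in addition, they gave a limma log2 difference of −0.26 (unadjusted p = 0.0124, adjusted p = 0.718). By fold enrichment the region ranked 68.1 and 62.7 with PBS and 62.3 and 62.6 with SCF, a gap of 0.09 points in favour of PBS. The inner region in the single exon of JUND (chr19:18390303-18391605) ranked 0.49 to 0.98 in all libraries with pileups of 100 to 139.

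**Figure D3:**
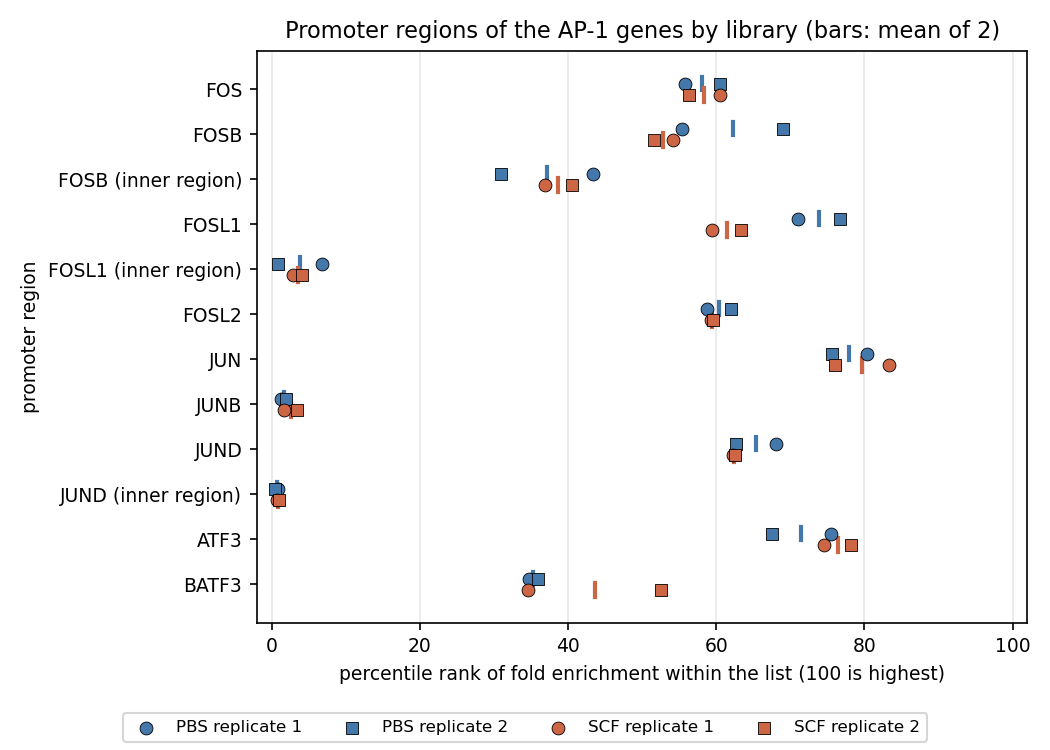
Percentile rank of fold enrichment within each list (x axis, 100 is highest) for the 12 promoter regions of the AP-1 genes (rows). Points are single libraries, in blue for PBS and orange for SCF, and bars are means of 2. The colours separate at FOSL1, FOSB and, by 0.09 points, JUND, each with SCF below PBS.

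Ranked by summit pileup instead, the promoters of the AP-1 genes stood high in the lists, with a median percentile of 92.5 against 76.0 for all promoter regions. On this scale 6 of the 12 ranked lower in SCF (JUN, FOSL1, FOS, JUNB, JUND and FOSB) and 1, BATF3, ranked higher, against 20.1% lower and 13.5% higher among all regions, promoter and distal together. The differences were small: −1.3 points at FOS, −1.2 at JUN and −4.4 at FOSL1. Scaled for depth by the lowest background of each list, the pileups overlapped between treatments at JUN, FOSL1, FOS, JUNB and JUND. They separated at FOSB (182 and 209 with PBS, 178 and 158 with SCF) and at BATF3 (15.3 and 12.7 with PBS, 20.1 and 20.3 with SCF). Quantile normalized in addition, the scaled pileups gave limma log2 differences of −0.26 at JUND, −0.32 at FOSB and 0.33 at BATF3. The unadjusted p-values were 0.0124, 0.0297 and 0.244. On this scale 6 of the 63 regions had an unadjusted limma p under 0.05 (9.52%, against 6.92% of all regions), and 0 passed the adjusted threshold. Pileup ranks near the top of a list have little room to differ, and the depth of the SCF libraries was lower than that of the PBS libraries. The part of depth in these ranks was not tested.

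**Figure D4:**
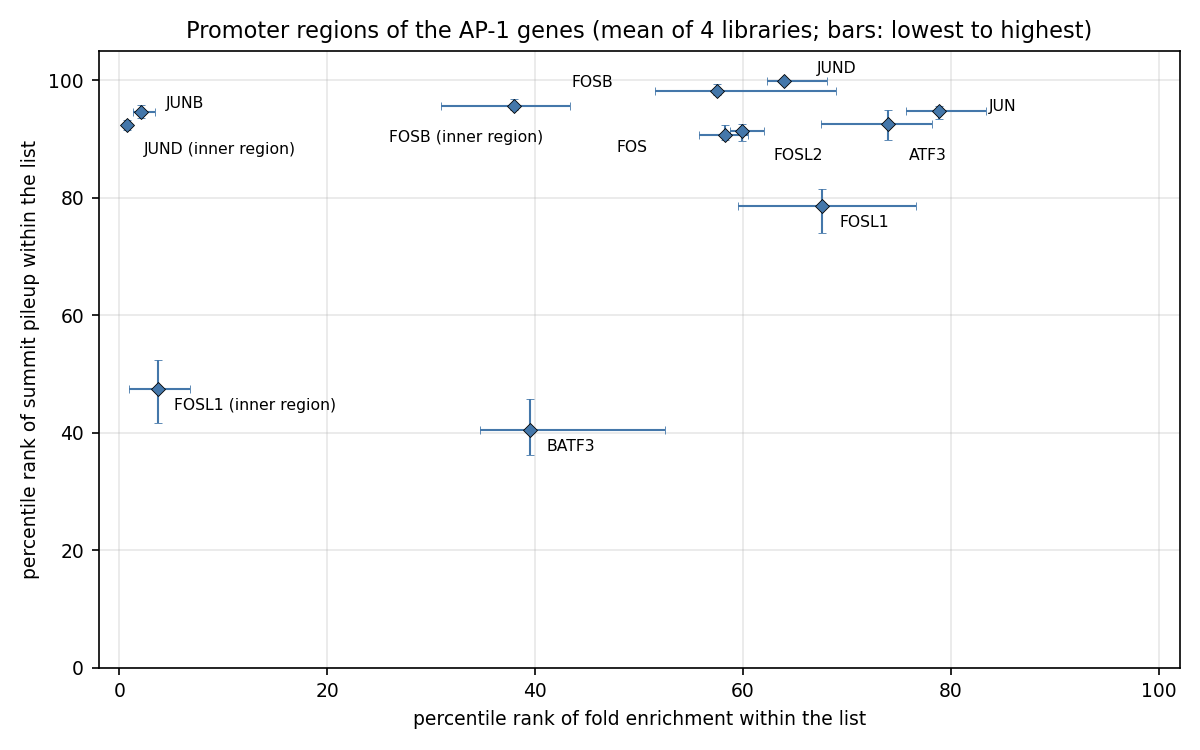
Percentile rank of fold enrichment (x axis) against percentile rank of summit pileup (y axis) within the lists for the 12 promoter regions, as the mean of the 4 libraries with bars from the lowest to the highest library. JUNB and the inner JUND region lie at the far left and near the top, and BATF3 and the inner FOSL1 region lie below 60 on both axes.

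The sequence words were counted next. Within 100 bp of the summit, the cAMP response element lay in 1 of the 12 promoters (8.33%, JUND) against 1.4% of all 17681 promoter regions, the JUN variant in 1 (JUN) against 0.679%, and the ATF3 variant in 2 (ATF3 and FOSB) against 0.328%. These 2 variants were taken from what is known of the JUN and ATF3 promoters, so their presence there is no finding. The AP-1 word lay in 0 of 12 within 100 bp, and in 3 within 300 bp (both FOSL1 regions and FOSL2), against 3.96% and 11.3% of all promoter regions. Within 300 bp the cAMP response element lay in 2 of 12 (JUND and FOSB), against 3.21%. The serum response element lay in 0 of 12 within 100 bp, against 0.684%, and in 2 within 300 bp (FOS and FOSB), against 2.08%. EGR words lay in 0 of 12 within 100 bp, against 6.36%, and in 2 within 300 bp (JUNB and JUND), against 17.2%. ETS words were found in 2 of 12 promoters within 100 bp, against 15.4%, and in 3 within 300 bp, against 33.4%. GATA words lay in 0 of 12 within 100 bp, against 9.41%, and in 1 within 300 bp (JUN), against 21.6%. The promoters were rich in GC, with a median of 70.6% against 65.7% for all promoter regions.

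Some distal regions ranked higher in SCF and others lower. Of the 40, 25 were called in all 4 libraries (62.5%, against 35.2% of all distal regions), and of these 7 ranked higher in SCF (28%, against 18.3% of all distal regions), 3 ranked lower (12%, against 16.9%) and 15 overlapped. Their median difference was 2.58 points, against 0.09 for all 9105 distal regions, which is smaller than the median spread between replicates of 5.78 points. A gap of 10 points was found in favour of SCF in 0 (4.56% of all distal regions) and in favour of PBS in 2 (8%, against 4.18%). Beyond the promoters of the AP-1 genes, 26 of the 31 promoters of other genes were called in all libraries, of which 4 ranked higher and 7 lower, beside shares of 74.9%, 14.4% and 20.9% of all promoter regions.

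The 3 regions with a gap of at least 10 points all ranked lower in SCF, and ATF3 had a region just under this limit. Their sequences are shown to set them beside 2 regions that ranked higher, except that the CCDC85B region is left out because its summit lies in an untranslated exon. The 2 were picked from the 7 distal regions that ranked higher, after their values were seen. Not shown is JUND −47.0 kb, which had the widest gap in favour of SCF and holds none of the words within 300 bp of its summit. Capitals mark the same words as above.
ATF3 at −6.36 kb, chr1:212732219-212732419, AP-1 and cAMP response element: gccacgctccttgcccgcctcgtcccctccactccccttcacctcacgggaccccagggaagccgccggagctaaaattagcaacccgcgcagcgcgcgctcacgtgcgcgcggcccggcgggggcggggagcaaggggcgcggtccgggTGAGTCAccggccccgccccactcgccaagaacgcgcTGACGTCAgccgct
FOSL1 at −33.6 kb, chr11:65701544-65701744, GATA in both orientations: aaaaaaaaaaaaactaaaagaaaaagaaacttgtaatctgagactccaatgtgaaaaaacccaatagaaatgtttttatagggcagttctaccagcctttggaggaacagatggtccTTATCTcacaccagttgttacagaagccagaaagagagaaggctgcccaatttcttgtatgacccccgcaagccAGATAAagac
JUNB at −30.8 kb, chr19:12871453-12871573, no word: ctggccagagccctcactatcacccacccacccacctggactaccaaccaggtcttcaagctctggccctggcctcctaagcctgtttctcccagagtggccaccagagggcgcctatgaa
FOSB at −12.1 kb, chr19:45959054-45959254, AP-1, JUN variant and AP-1: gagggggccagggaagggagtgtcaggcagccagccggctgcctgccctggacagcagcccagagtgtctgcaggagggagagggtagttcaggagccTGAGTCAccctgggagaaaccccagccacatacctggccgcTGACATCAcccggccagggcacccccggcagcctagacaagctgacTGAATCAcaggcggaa
FOSL1 at −41.1 kb, chr11:65709041-65709241, GATA: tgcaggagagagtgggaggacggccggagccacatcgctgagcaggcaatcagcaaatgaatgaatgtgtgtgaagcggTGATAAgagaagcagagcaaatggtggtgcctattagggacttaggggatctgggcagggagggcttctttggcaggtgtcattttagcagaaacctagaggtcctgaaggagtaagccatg

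The region upstream of ATF3 (chr1:212731737-212732673), at the start of the non-coding gene ENSG00000288007, holds an AP-1 word and a full cAMP response element. It ranked 86.6 and 69.8 with PBS and 56.7 and 60.5 with SCF, with a gap of 9.27 points. Both SCF libraries were lower, and the PBS replicates lay far apart. The log2 difference in fold enrichment was −0.44 ± 0.19 (SE, 95% interval −0.83 to −0.04, limma unadjusted p = 0.0332, adjusted p = 0.697). Summit pileups were 44 and 42 with PBS and 25 and 21 with SCF. Divided by the lowest background of each list, which scales for depth, they were 42.1 and 28 against 26.5 and 23.7, a smaller difference. Quantile normalized in addition, they gave a limma log2 difference of −0.65 ± 0.25 (SE, unadjusted p = 0.0263, adjusted p = 0.718).

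At FOSL1, 5 of the 12 regions called in all libraries ranked lower in SCF and 2 ranked higher, beside 19.3% and 16% of all regions. These are neighbouring regions of 1 locus, and the count was not tested. The region at 9.69 kb (chr11:65657782-65658601) is the promoter of CCDC85B, whose summit lies in its untranslated exon, and ranked 49.1 and 61.3 with PBS and 27.3 and 34.9 with SCF (limma log2 difference −0.49 ± 0.22 SE, unadjusted p = 0.041, adjusted p = 0.716). Upstream of FOSL1, the region at −33.6 kb (chr11:65701400-65702058) between genes ranked 79.1 and 77.3 with PBS and 59.8 and 64.3 with SCF (limma log2 difference −0.37 ± 0.16 SE, unadjusted p = 0.038, adjusted p = 0.712). Replicates lay close together there, and the gap was 13 points. The neighbouring region at −41.1 kb (chr11:65708687-65709550) went the other way, with 59.5 and 63.4 with PBS and 74.8 and 69.0 with SCF, a gap of 5.59 points. Another distal region, at −27.6 kb, ranked higher in SCF with 44.8 and 10.6 with PBS and 48.0 and 49.9 with SCF, where PBS replicate 2 alone was low. Lower ranks by smaller gaps were found at −6.07 kb (gap of 1.43 points) and at the promoter of EFEMP2, 26.7 kb downstream of the start (gap of 5.76 points, turned to a difference of 1.45 points in favour of SCF by summit pileup).

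At JUNB, the region at −30.8 kb (chr19:12871295-12871775) between BEST2 and HOOK2 had the widest gap of all 63. It ranked 45.0 and 36.6 with PBS and 18.4 and 18.2 with SCF, 18.1 points apart. Pileups were 27 and 34 against 19 and 16, or 25.8 and 22.7 against 20.1 and 18.1 after scaling for depth. The log2 difference of −0.43 ± 0.23 (SE) did not pass (limma adjusted p = 0.750). Closer to the gene, a region just past its 3′ end (2.29 kb from the start, chr19:12904221-12904984) ranked higher in SCF by a gap of 1.74 points, with 17.4 and 16.2 with PBS and 19.6 and 19.1 with SCF. By summit pileup the difference was −0.50 points, so its direction depended on the scale. A region on the other side of the gene, at −1.43 kb, had pileups of 176 to 304, above those of the promoter, and its ranks overlapped between treatments. Higher ranks in SCF were also given by promoters of other genes. They lay at −15.8 kb, 96 bp from a start of HOOK2, and at −6.71 kb, 329 bp from a start of ENSG00000267212. Both lie within introns of HOOK2 transcripts in the annotation, and the gaps were 3.45 and 1.01 points. A weak region at 42.5 kb, 77 bp from a start of MAST1, also ranked higher. The highest-ranked distal region of JUNB, at 49.3 kb, ranked 68.4 and 63.2 with PBS and 63.8 and 80.5 with SCF and overlapped.

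At FOSB, the region at −12.1 kb (chr19:45958819-45959680), in an intron of ERCC1 transcripts, holds 2 AP-1 words and the JUN variant within 100 bp of its summit. It ranked 20.01 and 27.8 with PBS and 37.4 and 34.2 with SCF, a gap of 6.39 points, with a log2 difference of 0.25 ± 0.22 (SE, limma adjusted p = 0.894). By summit pileup, however, the difference was −0.73 points. The highest-ranked distal region of FOSB, at 14.5 kb in an untranslated exon of RTN2, ranked 87.0 and 90.8 with PBS and 97.7 and 93.2 with SCF and had the highest rank of the distal regions called in all libraries. It lay higher in both SCF libraries by 2.49 points (limma unadjusted p = 0.057, adjusted p = 0.737). A promoter of PPM1N at 28.4 kb ranked higher and one near RTN2 at 26.1 kb ranked lower, with gaps of 2.11 and 5.91 points.

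At JUND, the region farthest upstream, at −47.0 kb (chr19:18439088-18439897), ranked 68.9 and 67.7 with PBS and 80.0 and 76.8 with SCF. Its gap of 7.89 points was the widest in favour of SCF at any of the 10 genes, and the log2 difference was 0.25 ± 0.15 (SE, 95% interval −0.08 to 0.58, limma adjusted p = 0.794). JUN itself had few regions. The only one called in both libraries of 1 treatment and in none of the other lay at −31.5 kb in LINC01135 (chr1:59280903-59281542). Its values in the PBS libraries were weak, with ranks of 6.52 and 18.4 and pileups of 12 and 15. The part of depth in the missing SCF calls was not tested. Next to this region, at −32.4 kb, the highest-ranked distal region of JUN ranked 54.1 and 65.7 with PBS and 54.6 and 54.4 with SCF. FOSL2 had 6 distal regions. Every library called 3 of them, and 0 ranked higher or lower. The highest, at −25.7 kb, ranked 71.2 and 50.6 with PBS and 60.1 and 69.5 with SCF. For ATF3, the one distal region called in all libraries, at 20.7 kb, ranged from 8.57 to 52.4 with replicates farther apart than treatments. A promoter of LINC02773 at 22.0 kb from BATF3 was among the top regions of each list, with ranks of 99.0 and 97.2 with PBS and 91.2 and 97.2 with SCF, and counts as lower by a gap that rounds to 0.

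AP-1 words were not frequent among the distal regions: 4 of 40 (10%) held one within 100 bp of the summit, against 11.5% of all distal regions. GATA words, the binding sites of the erythroid GATA factors, lay in 8 of 40 (20%) against 36.4%, while the distal regions here had a median GC content of 58.5% against 48.8%. Of the 4 with an AP-1 word, the one at FOSB −12.1 kb ranked higher in SCF, the one at FOSB −28.2 kb overlapped between treatments (difference of 0.45 points), and 2 near ATF3 were not called in all libraries.

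Other genes of the pathway were read at their promoters, where several regions of 1 gene are represented by the one with the highest pileup. Of 23 other bZIP genes (ATF, CREB, MAF, NFE2, BACH and related families), 21 had a promoter region, 20 of them in every library, and 5 ranked higher and 2 lower in SCF. Of 19 kinases and factors upstream of AP-1 (RAF, MEK, ERK, JNK and RSK kinases, ELK factors, SRF and its cofactors, FBXW7), 19 had a promoter region, 18 of them in every library, with 2 higher and 7 lower. Of all promoter regions, 74.9% were called in every library, and of these 14.4% ranked higher and 20.9% lower. In both lists 0 promoters passed limma at an adjusted p of 0.05 and 0 had a gap of 10 points. The largest differences were at MAPK3, which encodes the kinase ERK1, with 62.7 and 80.4 with PBS and 85.3 and 86.0 with SCF, at MAF, with 40.9 and 63.1 against 58.9 and 71.1, which overlap, and at BACH2, a repressor of AP-1-like sites, with 32.8 and 42.3 against 52.5 and 48.1. The limma adjusted p-values of these 3 were 0.720, 0.818 and 0.862.

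By their ranks in the 4 libraries, the promoters most like that of FOS among 10518 protein-coding genes were HAUS2, TACO1 and MBD6, at Euclidean distances of 1.77, 2.31 and 2.68 rank points. The ranks of MBD6 were identical in all 4 libraries to those read for DDIT3, which is among the other bZIP genes above. Most like JUN were CDK1 and UNC79, at 1.26 and 1.27 points. Over 4 libraries this measure weighs the level of a promoter as well as its differences.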

How the data were processed

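ATAC-seq peak lists of the 4 sgControl libraries were analysed. The authors ran the ENCODE ATAC-seq pipeline on paired-end reads. The submitters' processing notes name Bowtie2, SAMtools and hg38, but the lists and the series description name hg19, and all peaks fit GRCh37. Peaks were called for every library separately, and the caller is not given in the sources used here. The lists deposited by the authors give a score (unused), a fold enrichment, which is a ratio of summit to local background, −log10 p-values and −log10 q-values, all at q-values under 0.05.

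Peaks sharing 1 bp were merged into regions on 24 chromosomes. Ranks were percentiles of fold enrichment within a list, and the best-ranked peak stood for a region. Summit pileup and local background were solved from the fold enrichment and −log10 p, matching whole numbers within a relative error of 0.0001 in 100% of peaks with −log10 p under 300. Relative depth is the lowest background scaled by the shortest peak. A missing call can therefore reflect depth.

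Log2 fold enrichment, quantile normalized, was fitted with limma 3.58.1 (R 4.3.3) with Benjamini-Hochberg adjustment over all 22355 regions, after a test on simulated data. The p-values and intervals rest on the spread of 2 libraries a group at a region, drawn toward the trend over all regions. The median of the total degrees of freedom was 14.2. Words were searched in GRCh37 by Python 3.11.15. The members and lists were chosen with earlier results of these data known. Named were all promoters of the 10 genes, regions called in 1 treatment alone or with a gap of 10 points, the top distal region of each gene, the 3 pathway genes and the 3 likeness genes with the largest and smallest values. One likeness gene is not reported here. Other regions that ranked higher or lower were named after their values were seen.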

Additional observations from a re-analysis of the deposited data

How the results depend on the processing

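Of the counts at the AP-1 genes, 0 regions passing limma at an adjusted p of 0.05 held in every alternative that kept 2 libraries per treatment. Among these were other normalizations and recovered pileups. The number ranked higher in both SCF libraries, 11, became 5 with a window of 15 kb, 6 with ranks by −log10 p, 7 with ranks by pileup over local background, 7 with ranks by pileup alone (chosen after seeing the data) and 0 with a gap of 10 points. The number ranked lower, 13, became 6 with 15 kb and 3 with the gap. With ranks by pileup, with or without local background, 18 ranked lower. Among all regions, 20.1% ranked lower and 13.5% higher by pileup alone, beside 19.3% and 16% by fold enrichment. The excess of lower over higher calls by pileup thus grew at the AP-1 genes and among all regions. Regions called with SCF alone went from 0 to 1, and those with PBS alone from 1 to 3, when a peak had to cover 50% of a region. The latter fell to 0 with −log10 q of at least 5 and 0 with 15 kb. The median difference at the promoters, 0.20 points, turned to −0.40 with −log10 q of at least 5, −0.93 by −log10 p, −1.51 by pileup over local background and −0.77 by pileup, so its sign is not settled. The distal median, 2.58, stayed above 0 in all 12 alternatives but fell to 0.021 by pileup over local background, 0.52 with −log10 q of at least 5, 0.60 by pileup and 0.64 by −log10 p. The cause of these shifts was not tested, apart from the smaller number of regions at 15 kb (35).

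With 2 libraries against 1 the conditions are looser. Leaving out each library in turn gave 1 to 4 regions called with SCF alone and 2 to 5 with PBS alone. Ranked higher were 19 (without SCF replicate 2) to 26 (without SCF replicate 1), and ranked lower 21 (without SCF replicate 1) to 24. The promoter median ran from −0.45 to 0.32 and the distal median from 0.37 to 4.39. Shares of all regions under these looser conditions were not computed, so the counts cannot be set against the genome. Of 338 rank differences of named regions under alternatives, 41 changed sign. At regions whose treatments overlapped, 35 did, at 12 of 14 such regions. At regions that had ranked higher or lower, 6 did: FOS −1.46 kb to −0.81 by −log10 p and −1.22 by pileup, JUNB 2.29 kb to −0.64 and −0.50, FOSB −12.1 kb to −0.73 and EFEMP2 to 1.45, the last 2 by pileup. Replicate numbers are shared by both treatments, but the labels do not say that they mark a common batch, the replicate numbers in the peak names of the lists differ from those of the labels, and the replicate difference in one treatment correlated with that in the other at r = 0.0236 over 22355 regions. With the replicate block, 15 regions ranked higher and 16 lower within both pairs, and 0 passed limma. The shares of all regions that did so within both pairs were not computed.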
